A study of Mus musculus with 6 samples.

Results

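H2-D1, H2-K1, H2-DMa and Brd2 are 4 genes of mouse chromosome 17, of 21883 protein-coding genes annotated on the main chromosomes. They were selected on the WDR5 and H3K4me3 regions already seen at them, as a group of histocompatibility genes with a neighbour. Their values are therefore given as a description, with no test. All regions of the 4 deposited peak lists inside each gene or within 5 kb of its ends were taken. The lists come from mouse embryonic stem cells carrying a GFP knock-in at Rx and kept in 2i+LIF, a medium that holds such cells in a naive state. In every sample endogenous Wdr5 and p53 were both knocked out. The WT rescue cells, called the WT line from here on, were given wild-type WDR5 (WDR5WT) and the mutant rescue cells, called the mutant line, WDR5S91KY191F, a form with substitutions at S91 and Y191. Each line had 1 WDR5 library, 1 H3K4me3 library and 1 input, after 10 minutes in 1% formaldehyde, and the 2 inputs were not analysed here. The promoter driving the rescue constructs, the number of clones and the strain are not given in the sources used here. With 1 library for each antibody and line, nothing that differs between them can be set against a spread between replicates.

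H2-D1 and H2-K1 encode the heavy chains of classical class I histocompatibility molecules, which pair with beta-2 microglobulin and show peptides from inside the cell to CD8 T cells. Embryonic stem cells are known for low surface class I. H2-DMa encodes the alpha chain of the class II helper molecule H2-DM, which loads peptides onto class II molecules in antigen-presenting cells. Brd2, which lies among the class II genes, encodes a BET-family protein that binds acetylated histones and is expressed widely. WDR5 is a scaffold of the complexes that methylate lysine 4 of histone H3, and H3K4me3, the trimethylated form, marks many gene starts.

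The letters before the start sites are shown first, because the WDR5 regions differ between genes whose promoters resemble each other. All are from RefSeq on GRCm38.p6, whose chromosome coordinates are those of mm10, and read 5′ to 3′ on the gene's own strand. The 250 bases before the H2-D1 start are chr17:35262844-35263093, plus strand. The H2-K1 stretch of 222 bases is chr17:34000304-34000525, minus strand. It is the part of the H2-K1 window that lines up with the H2-D1 letters and runs at most 30 bases past the annotated start. Capitals mark GGGGATTCC, the kappa B site of the class I enhancer, ATTGG, the CCAAT box read on either strand, and TATAAA.
H2-D1: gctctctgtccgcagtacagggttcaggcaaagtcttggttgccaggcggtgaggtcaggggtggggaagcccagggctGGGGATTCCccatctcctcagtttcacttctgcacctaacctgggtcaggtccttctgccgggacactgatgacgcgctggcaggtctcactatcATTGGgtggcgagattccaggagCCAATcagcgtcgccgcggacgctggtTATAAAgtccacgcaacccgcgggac
H2-K1: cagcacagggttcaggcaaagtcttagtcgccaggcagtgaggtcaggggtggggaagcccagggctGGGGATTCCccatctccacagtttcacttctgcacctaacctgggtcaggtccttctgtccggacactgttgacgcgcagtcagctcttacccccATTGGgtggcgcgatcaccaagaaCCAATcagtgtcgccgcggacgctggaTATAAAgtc
Both stretches hold the same 3 motifs in the same order, but TATAAA lies on different sides of the annotated starts. It is at −26 to −21 in H2-D1 and at 21 to 26 past the start at 34000333 in H2-K1. No H2-K1 window before a start holds it. Over 239 aligned columns the H2-D1 letters matched the H2-K1 window at 214, an identity of 89.5%. GGGGATTCC occurs on either strand in 70 of 32851 such promoter windows (0.213%), ATTGG in 33.8% and TATAAA in 12.4%. A match is a description of letters and not evidence of binding.

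Brd2 and H2-DMa are read in opposite directions and their annotated spans overlap by 3122 bp. Brd2 has 4 annotated starts, at 34119900, 34121747, 34122607 and 34122814, all on the minus strand. The one at 34122814 comes from the gene's annotated end alone. H2-DMa has 3 on the plus strand, at 34119693, 34122832 and 34125518, of which 34119693 comes from the gene's annotated end alone. The starts at 34122607 and 34122832 point away from each other across 225 bp, with the Brd2 gene end at 34122814 between them. The upstream letters of the innermost Brd2 start, chr17:34119901-34120150, and those of the divergent pair, chr17:34122608-34122857, are given on the minus strand. The main WDR5 region of the WT line covers the former, and no region of any list lay over the latter.
Brd2 innermost: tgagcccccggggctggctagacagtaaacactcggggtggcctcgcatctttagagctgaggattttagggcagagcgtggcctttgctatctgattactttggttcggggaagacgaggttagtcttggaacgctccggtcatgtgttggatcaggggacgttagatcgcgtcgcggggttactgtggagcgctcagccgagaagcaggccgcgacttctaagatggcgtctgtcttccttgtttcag
Brd2 divergent: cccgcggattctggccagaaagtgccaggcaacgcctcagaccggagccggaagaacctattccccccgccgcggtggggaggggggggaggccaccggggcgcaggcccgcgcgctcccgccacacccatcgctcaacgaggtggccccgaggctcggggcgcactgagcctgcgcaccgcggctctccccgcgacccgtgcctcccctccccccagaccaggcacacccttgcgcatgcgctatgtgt
The innermost window has 56.4% G+C and 18 CpG, and the divergent one 73.6% and 27, against medians of 52.4% and 6 over all windows. The H2-D1 window has 60.8% and 14. Besides the 3 motifs above, 6 more were searched on both strands, with overlapping matches counted for each motif. They were the E-box CACGTG (in 6.02% of all windows), GAAANNGAA, 1 form of the interferon response element (7.13%), the cyclic AMP response element TGACGTCA (1.55%), the ZNF143 motif ACTACAATT (0.365%), the GC box GGGCGG (32.7%) and the ETS motif CACTTCCG (2.49%). Neither Brd2 window printed here held any of the 9 motifs as spelled. The window before the Brd2 start at 34121747, not printed, held the GC box at −96 to −91. Other forms of the interferon response element, such as its parts in another order, were not searched, so nothing is said of that element at H2-D1 or H2-K1.

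The 4 genes held 5 WDR5 regions in the WT line list and 2 in the mutant line list, all at H2-D1 or inside Brd2, with 0 at H2-K1. Those inside Brd2 also lay in H2-DMa or within 5 kb of it. A WDR5 region inside a gene or within 5 kb was listed for 3 of the 4 in each line, beside 30.7% of protein-coding genes in the WT line and 36.2% in the mutant line. Within 1 kb of a start site the count was again 3 of 4 in each line, beside 16.9% and 9.97%. The genes were chosen on these regions, so nothing is read from the count. The strongest region of each place was in both lines, whereas 3 weak WT line regions had no mutant line counterpart. Over the whole lists 12.3% of WT line WDR5 regions were overlapped by one of the mutant line, and 5.09% in the other direction.

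H2-D1 had the highest WDR5 fold of the 4 genes in both lines. Fold here is the authors' enrichment of a region at its summit and is read within its own list. In the WT line list the region had a fold of 25.7, a −log10 p of 242 and a −log10 q of 236, and 31 of 11095 regions (0.279%) had a fold as high or higher. In the mutant line list the fold was 16.5, with a −log10 p of 105 and a −log10 q of 99.4, and 18 of 26888 regions (0.0669%) had a fold as high. The region covered chr17:35262960-35263235 in both lists, the same 276 bp to the base. It began 134 bp before the H2-D1 start and took in 142 bp from the start on. Its summit lay 11 bp past the start in the WT line and 4 bp before it in the mutant line. The H2-D1 letters above run over the first 134 bases of the region.

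**Figure D1:**
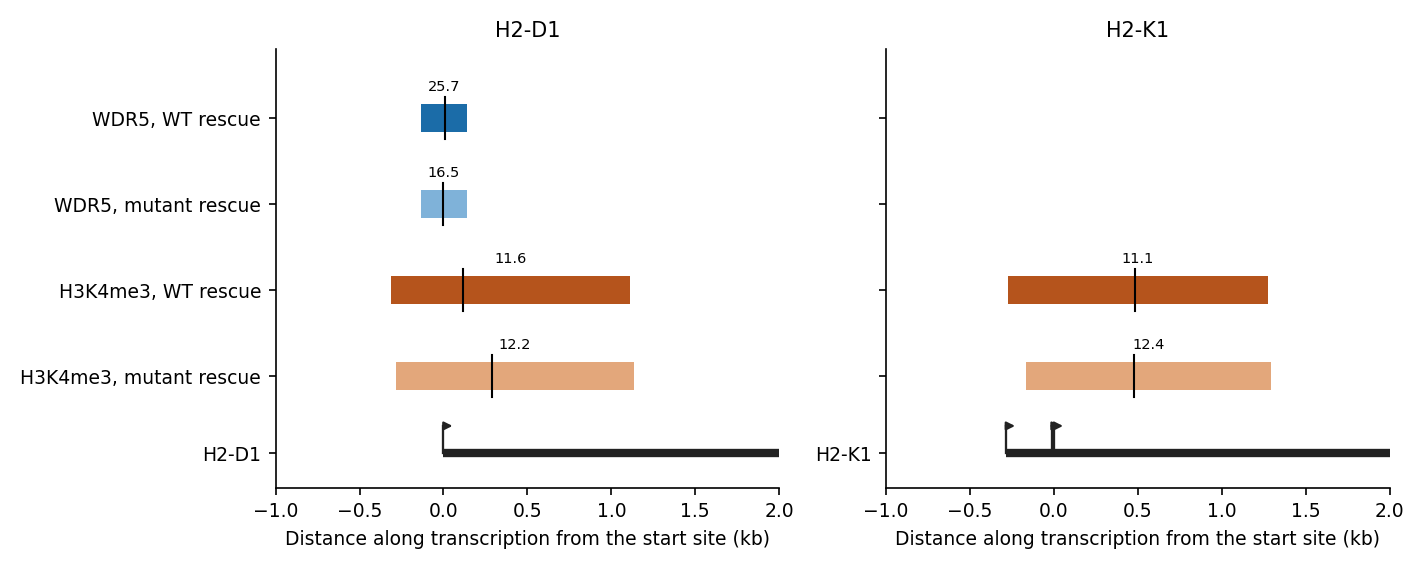
Regions of the 4 lists (bars, with a black tick at the summit and the fold above) at H2-D1 and H2-K1, by distance in kb along transcription from the start site at 35263094 and at 34000333; arrows mark annotated starts and the black line the gene. H2-D1 has a 276 bp WDR5 region in both lines inside an H3K4me3 region, and H2-K1 an H3K4me3 region of like fold with no WDR5 region.

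Identical ends were rare among WDR5 regions as a whole, with 11095 regions in the WT line list and 26888 in the mutant line list. They occurred at 96 places across both lists, of which 83 were 270 to 290 bp wide and 56 had a fold of at least 5 in both lists. Regions of 270 to 290 bp with a fold of at least 5, like that of H2-D1, numbered 107 (WT line) and 72 (mutant line). Among regions of that kind identical ends were thus much less rare. Of the 96, 5 covered an annotated start site of a protein-coding gene, H2-D1 among them. Pde4a, a cyclic AMP phosphodiesterase gene named after its values were seen, had folds of 20.6 and 10.6, and the other 3 genes had folds under 5 in both lists. At 66 of the 96 places the WT line H3K4me3 list also held a region of 200 to 300 bp, but H2-D1 was among the 9 that lay in an H3K4me3 region over 1000 bp wide. The shares of all WDR5 regions that cover a start or lie in such H3K4me3 regions were not taken, so nothing is read from these counts. What gives the regions of 270 to 290 bp their common width was not tested.

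H2-K1 had no WDR5 region in either list. The nearest WDR5 region to its start at 34000333 was 24.4 kb away in the WT line, at Ring1 (fold 2.78, −log10 q 0.380), which encodes a Polycomb protein. In the mutant line it was 44.0 kb away, at the start sites of the ribosomal protein gene Rps18 and of Vps52, with a fold of 10.5 and a −log10 q of 57.6. Read depth is not held in peak lists, so the level of WDR5 that would have gone unlisted at H2-K1 is unknown.

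H3K4me3 at the 2 class I genes was alike. At H2-D1 the WT line region ran from 35262784 to 35264206 (1423 bp, fold 11.6, −log10 p 349) and the mutant line region from 35262809 to 35264228 (1420 bp, fold 12.2, −log10 p 291). At H2-K1 they ran from 33999056 to 34000609 (1554 bp, fold 11.1, −log10 p 276) and from 33999042 to 34000500 (1459 bp, fold 12.4, −log10 p 263). The folds of the 2 genes lay within 14.4% and 16.2% of the top of the WT line list and within 9.35% and 8.67% of the top of the mutant line list. The WDR5 region of H2-D1 lay wholly inside its H3K4me3 region in both lines. A second, weak H3K4me3 region lay beyond the far end of H2-K1, from 33991727 to 33991924 in the WT line (fold 3.66) and from 33991788 to 33991945 in the mutant line (fold 3.20). Class I genes are close copies of each other and the handling of reads with several matches is not given in the sources used here, so the share of these values that belongs to each copy is uncertain.

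Brd2 carried the other strong WDR5 region. In the WT line it ran from 34118005 to 34120582 (2578 bp) with a fold of 18.2, a −log10 p of 91.7 and a −log10 q of 86.3, and 50 regions of the list (0.451%) had a fold as high. In the mutant line it ran from 34118110 to 34119854 (1745 bp) with a fold of 8.57, a −log10 p of 63.6 and a −log10 q of 58.2, and 152 regions (0.565%) had a fold as high. The mutant line region lay wholly within the WT line region, and the summits, at 34119193 and 34119180, were 13 bp apart. The WT line region reached 682 bp past the Brd2 start at 34119900, over all of the innermost upstream letters above, while the mutant line region ended 46 bp short of that start.

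This region was assigned to the innermost Brd2 start because its summit lay inside Brd2 and outside H2-DMa. By distance alone the summit was nearer to the annotated H2-DMa gene start. The summit lay 707 bp (WT line) and 720 bp (mutant line) downstream of the innermost Brd2 start, inside Brd2. It lay 500 and 513 bp before the annotated H2-DMa gene start at 34119693, and so outside H2-DMa, although both regions covered that start. With the promoter table's starts alone, an alternative chosen after seeing the data, the region counts for Brd2 and not for H2-DMa, and WDR5 is then listed at the starts of 2 of the 4 genes in each line. From the H2-DMa start at 34122832 the nearest WDR5 region was 1025 bp away in the WT line and 2978 bp in the mutant line.

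The 3 weak WT line regions also lay in Brd2. The one from 34121481 to 34121807 (fold 2.47, −log10 q 0.144) covered the Brd2 start at 34121747. The one from 34120918 to 34121073 (fold 2.89, −log10 q 0.804) lay 674 bp from that start, within the gene. The third, from 34116790 to 34117050 (fold 2.41, −log10 q 0), lay 2850 bp downstream of the innermost start. Their folds fell between the 32.9% and the 72.7% mark of the list counted from the top, far below the main region.

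**Figure D2:**
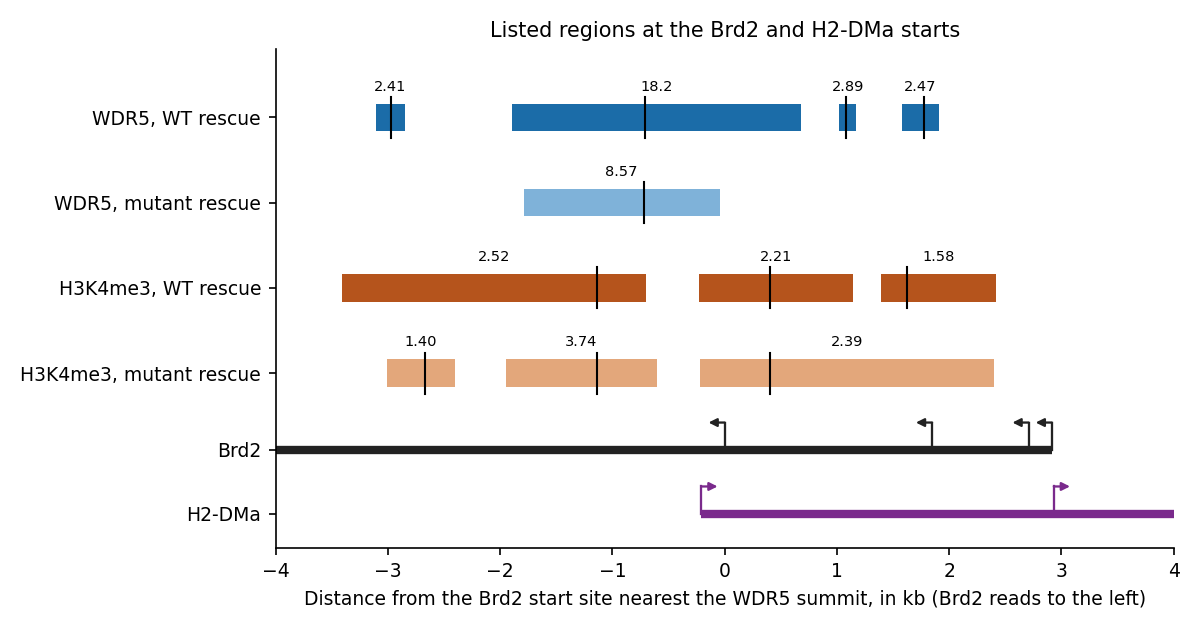
Regions of the 4 lists (bars, with a black tick at the summit and the fold above) around the innermost Brd2 start, by distance in kb; arrows mark the annotated starts of Brd2, read to the left, and H2-DMa, read to the right. The main WDR5 region spans a gap between H3K4me3 regions in both lines, and the outer pair of divergent starts has no region over it.

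H3K4me3 at Brd2 was broken into several regions, with a break under the main WDR5 region to one side of its summit. In the WT line 3 regions ran from 34116488 to 34119197 (fold 2.52), from 34119674 to 34121044 (fold 2.21) and from 34121294 to 34122313 (fold 1.58). In the mutant line 3 regions ran from 34116891 to 34117494 (fold 1.40), from 34117954 to 34119293 (fold 3.74) and from 34119682 to 34122300 (fold 2.39). The mutant line had a further break, between 34117494 and 34117954, where the WT line had none, and the WT line one between 34121044 and 34121294 that the mutant line lacked. The break at the WDR5 region was 476 bp wide in the WT line, from 34119198 to 34119673, and 388 bp in the mutant line, from 34119294 to 34119681. The WDR5 summit lay 5 bp and 114 bp from the edge of that break, inside the H3K4me3 region on the gene-body side, and H3K4me3 covered 81.5% and 77.8% of the WDR5 region. All 5 WDR5 regions of the WT line and both of the mutant line overlapped H3K4me3, beside 46.0% and 12.3% of all WDR5 regions in those lists.

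The H3K4me3 folds at Brd2 were low for regions of such significance. The WT line region of fold 2.52 had a −log10 p of 124 and the mutant line region of fold 3.74 one of 314, yet 89.3% and 56.9% of regions in those lists had a fold as high. Of the WT line H3K4me3 regions with a −log10 p of at least 100, 145 of 16103 (0.900%) had a fold of at most 4, and in the mutant line 66 of 12922 (0.511%). The fold depends on the background set against each region, which is not given in the sources used here, and its part in these values was not tested.

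**Figure D3:**
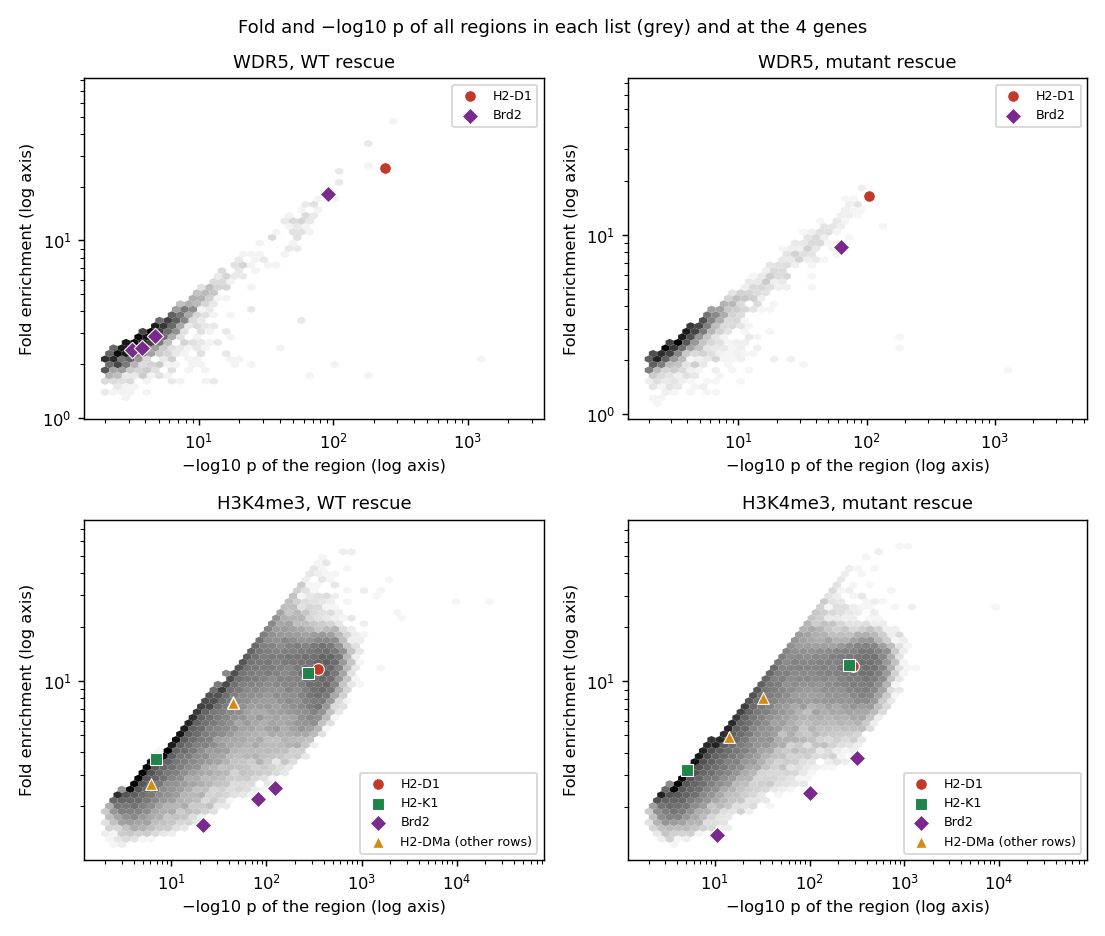
Fold against −log10 p, both on log axes, of all regions in each list (grey, darker for more regions) with the regions of the 4 genes marked; those in both Brd2 and H2-DMa are shown as Brd2. H2-D1 and the main Brd2 region sit near the top of both WDR5 lists, while the Brd2 regions lie along the lower edge of both H3K4me3 lists.

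H2-DMa had H3K4me3 of its own away from the Brd2 stretch. A region inside the gene ran from 34135416 to 34136009 in the WT line (fold 7.62, −log10 p 44.2) and from 34135501 to 34136216 in the mutant line (fold 8.05, −log10 p 32.4). It lay 9898 bp (WT line) and 9983 bp (mutant line) past the nearest annotated H2-DMa start. Another began 147 bp (WT line) and 180 bp (mutant line) beyond the far end of the gene, with folds of 7.59 and 4.89. A weak region from 34128881 to 34129497 (fold 2.67) was in the WT line alone. None of these was overlapped by a WDR5 region, so WDR5 and the strongest H3K4me3 of H2-DMa lay at different places.

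Over the 4 genes the H3K4me3 lists held 9 regions in the WT line and 8 in the mutant line, and in each list 8 had a counterpart in the other. In the whole lists this held for 80.7% and 77.7%. All 4 genes had an H3K4me3 region in the gene or within 5 kb in both lines, as did 79.3% and 79.1% of protein-coding genes, and all 4 had one within 1 kb of a start, as did 69.7% and 69.0%. For H2-DMa the latter rests on the Brd2 regions. Taking 10 kb in place of 5 kb added 1 H3K4me3 region in each line and no WDR5 region.

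The wider antigen presentation machinery and the BET family made a list of 53 genes, of which 52 were annotated under that name. Of the 52, 10 had a WDR5 region at a start in the WT line and 10 in the mutant line (19.2%, exact binomial 95% interval 9.63 to 32.5% in each), beside 16.9% and 9.97% of all protein-coding genes. Without the 4 genes the count was 7 of 48 in each line (14.6%, interval 6.07 to 27.8%), and both shares over all genes lie inside that interval. Outside the 4 genes the highest folds were 3.68 in the WT line and 4.35 in the mutant line, and the median of the highest folds was 2.89 and 2.77, beside 2.74 and 2.57 over all protein-coding genes with a region. H3K4me3 was at 40 of 52 starts in each line (76.9%, interval 63.2 to 87.5%), beside 69.7% and 69.0% of all protein-coding genes, which lie inside the interval. The intervals cover counting error only. Those for all 52 genes do not allow for the choice of the 4 genes on these regions. They also treat genes as independent, although Brd2 and H2-DMa share regions, as do Tap1 and Psmb9.

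Among 17 annotated class I heavy chain genes, WDR5 regions were listed at H2-D1, H2-Q4 (fold 2.76, −log10 q 0.226) and H2-Q7 (1.85, 0) in the WT line and at H2-D1 alone in the mutant line. These 3 and 1 of 17 are 17.6% and 5.88%, near the shares over all genes just given. The Q genes encode non-classical class I chains, and among alignments of over 200 columns theirs were the closest to H2-D1 after H2-K1. H2-Q6, H2-Q7 and H2-Q10 matched the H2-D1 letters at 83.5%, 83.6% and 82.1% of 248, 250 and 252 aligned columns. H3K4me3 was at 14 of the 17 in both lines (82.4%, beside 69.7% and 69.0%), with folds from 5.96 to 13.9 in the WT line and from 3.63 to 14.4 in the mutant line. H2-M2, H2-M9 and H2-T24 had none in either line. H2-K1, H2-Q6 and H2-Q10 thus had H3K4me3 and promoter letters close to those of H2-D1 with no WDR5 region in either list.

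All 14 class I assembly genes had H3K4me3 in both lines, beside 69.7% and 69.0% of all genes. WDR5 was at 3 of the 14 in the WT line (21.4%, beside 16.9%) and at 2 in the mutant line (14.3%, beside 9.97%). Psme1, a proteasome activator gene, had WDR5 regions of fold 3.68 (−log10 q 3.46) and 2.11 (0). Psme2, its partner, had one of fold 2.06 and the chaperone gene Canx one of 2.94 in the WT line, and Pdia3, a disulfide isomerase gene, one of 2.21 in the mutant line. B2m, which encodes beta-2 microglobulin, and the peptide transporter genes Tap1 and Tap2 had none.

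Of 11 class II genes, 3 in the WT line (27.3%) and 2 in the mutant line (18.2%) had H3K4me3, beside 69.7% and 69.0% of all genes. It was at the starts of H2-Ab1 (folds 9.06 and 9.77) and, through the Brd2 regions, H2-DMa in both lines, and of Cd74, the invariant chain, in the WT line alone (2.69). H2-Aa, H2-Eb1, H2-Eb2, H2-Oa, H2-Ob, H2-DMb1, H2-DMb2 and Ctss had none in either list. Apart from H2-DMa, the only WDR5 region was at H2-DMb1 in the mutant line (fold 2.77, −log10 q 0.428). The WDR5 counts of 1 and 2 of 11 (9.09% and 18.2%) stand beside 16.9% and 9.97% of all genes.

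Among the transactivators, Rfx5, whose product binds class I and class II promoters, had WDR5 in both lines, with folds of 3.05 (−log10 q 1.26) and 4.35 (6.56). Ciita, the class II transactivator, and Rfxap, an Rfx5 partner, had WDR5 regions in the mutant line alone (2.99 and 2.73). Both ends of Ciita were used as starts, since the tables give it no strand. Its WDR5 region lay at the lower-coordinate end, and its highest H3K4me3 region (6.38, mutant line alone) lay at the opposite end, so at most 1 of them is at the true start. Among the BET genes, Brdt, the testis member, had a WDR5 region in the mutant line (3.31, −log10 q 1.56), and Brd3 had none. H3K4me3 folds were 8.58 and 8.78 at Brd3 and 5.58 and 4.49 at Brdt, above those of Brd2 in each list.

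**Figure D4:**
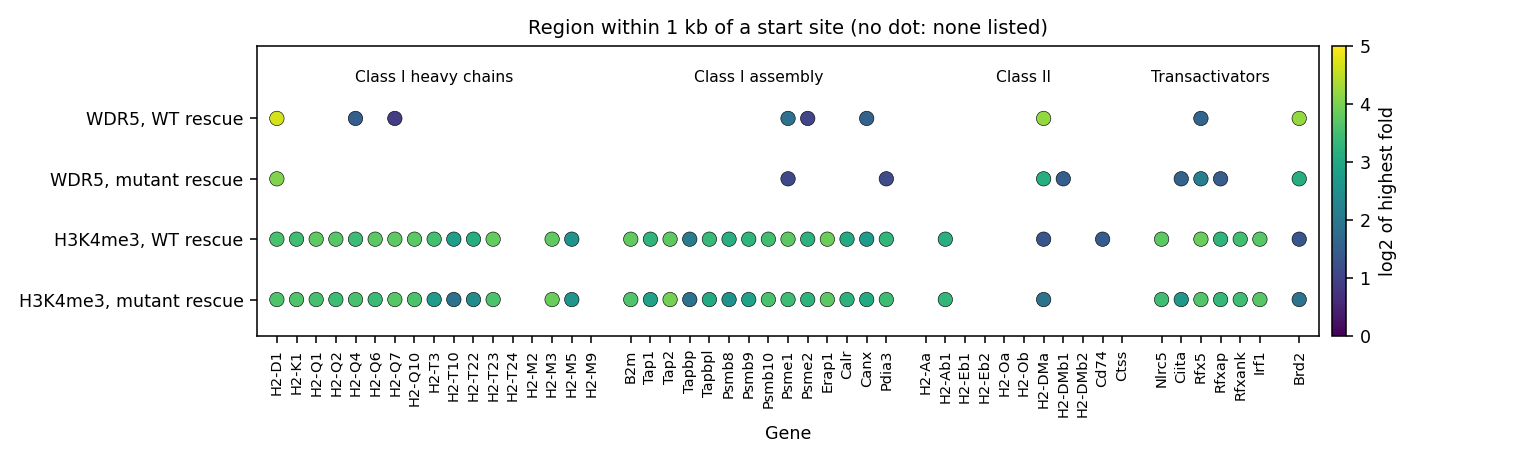
Highest fold (colour, log2) of a region within 1 kb of a start site, for Brd2 and the antigen presentation genes in the 4 lists; no dot means none listed. H2-D1, H2-DMa and Brd2 are the bright dots of the WDR5 rows, with folds of 25.7, 18.2 and 18.2 in the WT line, and H2-DMa shares its region with Brd2.

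With a −log10 q of at least 2, WDR5 regions stayed at the starts of H2-D1, Brd2 and H2-DMa in both lines, beside 2.51% and 1.81% of all protein-coding genes, and of the rest of the list at Psme1 in the WT line and at Rfx5 in the mutant line.

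The genes most like each member were sought by the highest fold in the gene or within 5 kb, as the distance over the 4 lists on a log2 scale, among 3582 protein-coding genes with a region in every list. Nearest to H2-D1 were Prdm16, which encodes a zinc finger regulator of transcription (distance 0.72), Dse, a dermatan sulfate epimerase gene (0.76), and Pde4a (0.78), whose WDR5 regions were 283, 282 and 281 bp wide, the same width in both lines. Nearest to Brd2 were the RNA-binding protein gene Serbp1 (1.25) and the ribosomal protein gene Rpl7a with its neighbour Surf1 (1.27 each, through 1 region), with WT line WDR5 regions of 1731 and 1273 bp. Nearest to H2-DMa were Tox4 (0.46), Rpl17 (0.47), for a ribosomal protein, and Ythdf2 (0.54), for a reader of methylated adenosine in RNA. The genes nearest to H2-D1 thus had narrow WDR5 regions and those nearest to Brd2 broad ones, width being no part of the distance. For H2-DMa the distance joined values from different places. Its WDR5 region is shared with Brd2, and its highest H3K4me3 folds (7.62 and 8.05) came from the region far inside the gene. WDR5 widths were mixed among the genes nearest to H2-DMa. In the WT line they were 693 bp at Tox4, 1117 bp at Rpl17 and 1568 bp at Ythdf2. H2-K1, with no WDR5 region, has no such list.

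The cells were checked by H3K4me3 at the starts of marker genes. It was at 8 of 8 embryonic stem cell markers in both lines, beside 69.7% and 69.0% of all protein-coding genes. It was also at 4 of 8 blood and antigen-presenting cell markers in both lines (Cd3e, Cd79a, Laptm5 and Spi1, but not Ptprc, Itgam or Csf1r) and at 4 and 3 of 6 fibroblast markers. Spi1 is annotated without strand, so both its ends were used as starts. Its H3K4me3 region lay at the higher-coordinate end in both lines, which may not be the true start. With so many genes marked, the counts say little about which cells were present. The part of other cells in the H3K4me3 of the class I genes was not tested.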

How the data were processed

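WDR5 and H3K4me3 were mapped by chromatin immunoprecipitation sequencing in 2 rescue lines, the WT line and the mutant line, 1 library each. Per the submitters' processing notes, reads were placed on mm10, with BWA (0.7.17-r1188), Picard, SAMtools and MACS2 (2.1.2) among the tools. Settings and controls are not given in the sources used here. The deposited lists give for each region the authors' fold (a ratio at the summit), −log10 p and −log10 q, a score, not used, and a summit. The lowest −log10 p was 2.00. Lists held 11095 (WDR5, WT line), 26888 (WDR5, mutant line), 71695 and 74305 (H3K4me3) regions. Depth is unknown.

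Genes and promoters came from RefSeq tables on GRCm38.p6, and all 4 genes matched. Starts were the promoter table's plus the gene end on the start side. For 4392 protein-coding genes without strand both ends were used. Overlap meant 1 bp or more. The 4 genes and the lists were chosen with earlier results of these data known. Named are the 4 genes, their list (some of its genes are not reported here), genes within 5 kb and the 3 most alike in pattern. The noncoding Gm31082 beside H2-K1 and H2-DMb2 beside H2-DMa lay within 5 kb. Overlap code was tested on simulated data. Alternatives were stricter thresholds (a −log10 p of 5 or more, or a −log10 q of 2 or more), narrow regions left out, other windows and overlaps, and lists of equal length. Python 3.11.15, numpy 2.4.6, pandas 2.3.3, scipy 1.17.1, Biopython 1.88 and matplotlib 3.10.9 were used.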

Additional observations from a re-analysis of the deposited data

How the results depend on the processing

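Of 80 counts recomputed under 11 alternatives, 70 stayed within 1.5 times. With a −log10 q of at least 2, WDR5 regions at the 4 genes in the WT line fell from 5 to 2, both on H3K4me3, and the antigen presentation and BET list fell from 10 to 4 genes in each line. A −log10 p of at least 5 also left 2 WT line WDR5 regions, both on H3K4me3. Leaving out regions of 270 to 290 bp with a fold of at least 5 removed H2-D1 from the WDR5 lists. It left 1 mutant line region, which overlapped H3K4me3, and 1 region shared between the lines in each WDR5 list. The alternatives could not have given H2-K1 a WDR5 region, so they do not bear on its absence there. The nearest lay 24.1 kb (WT line) and 44.0 kb (mutant line) from its starts, and the widest flank was 10 kb. No paired analysis was possible because each antibody and line has 1 library. With no read totals, a region that was not listed may lie under the detection limit.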

Other observations

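Low H3K4me3 fold with high significance, as at Brd2, was also found at some starts of the 8 embryonic stem cell markers, a pattern picked out after their values were seen. In the WT line 5 of the 8 had a fold of at most 4, beside 0.900% of all H3K4me3 regions with a −log10 p of at least 100. The share over all starts with H3K4me3 was not taken. Pou5f1 had 3.31 with a −log10 p of 139, Nanog 3.55 with 125, Sox2 3.05 with 144, Zfp42 2.62 with 131 and Klf4 3.84 with 162. In the mutant line the folds of these genes, in the same order, were 4.14, 3.97, 3.62, 3.56 and 4.42. Those of Pou5f1 and Klf4 were thus above 4 there. The other 3 went the other way, with folds of 9.64 and 8.65 at Esrrb, 9.86 and 7.64 at Tfcp2l1 and 9.07 and 7.87 at Dppa5a. Tapbp, the tapasin gene of class I assembly, had 4.23 with 107 in the WT line and 3.71 with 58.7 in the mutant line. Over all protein-coding genes with H3K4me3 at a start the median of the highest folds was 10.2 and 10.4.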
